A study of Mus musculus with 2 samples.

Results

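The miRNA genes described here are the 9 members of a pair of genomic clusters that are paralogous to the Mir17-92 cluster. Mir106b, Mir93 and Mir25 form the Mir106b-25 cluster on chromosome 5, and Mir106a, Mir18b, Mir20b, Mir19b-2, Mir92-2 and Mir363 form the Mir106a-363 cluster on chromosome X. They were chosen by gene symbol, and all 9 were found among the 1973 miRNA genes of the tables. Whole bladders of newborn mice (strain B6NCrl, postnatal day 0) were profiled by microRNA-seq, with the RNA limited to under 30 nucleotides per the labels. There was 1 group of 2 samples, each 1 bladder and 1 library, with no treatment in the labels and the sex not collected. The labels describe them as pup 1 and pup 2 of the same pregnancy and number them as biological replicates, but also give both the same donor identifier. They are treated here as 2 littermates, and if they were 1 source the spread between them would be technical. Levels are counts on the gene's own strand per 1000000 such counts in the library (CPM), given as mean ± SD over the pups (n = 2).

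MicroRNAs are short RNAs that pair with messenger RNAs, mainly through the seed, bases 2 to 8 from the 5′ end, and lower their translation and stability. The Mir17-92 cluster and its relatives arose by duplication, and their products fall into the miR-17, miR-18, miR-19 and miR-92 seed families. They are known for their role in cell proliferation, for targets such as the cell cycle inhibitor Cdkn1a and the proapoptotic gene Bcl2l11, and for high levels in dividing cells of the embryo. Mcm7, the host of the Mir106b-25 cluster, encodes a subunit of the helicase that opens DNA for replication.

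The mature sequences are shown because seeds define the families and because identity between paralogues decides which reads can be told apart. For each hairpin the arm usually loaded as the guide was taken, as background, since the counts are per hairpin and do not separate the arms. All sequences are from RefSeq on GRCm38.p6, written 5′ to 3′ with the seed in capitals, and all 9 members were matched. The miR-17 seed is carried by 4 members and by Mir17 and Mir20a of the Mir17-92 cluster:
miR-106b-5p: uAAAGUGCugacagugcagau
miR-93-5p: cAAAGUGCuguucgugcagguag
miR-106a-5p: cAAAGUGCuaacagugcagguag
miR-20b-5p: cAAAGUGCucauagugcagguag
miR-17-5p: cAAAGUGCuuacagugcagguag
miR-20a-5p: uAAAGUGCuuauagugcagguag

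The miR-92 seed is carried by 3 members, Mir25, Mir92-2 and Mir363, and miR-92a-3p is made by both Mir92-2 and Mir92-1:
miR-25-3p: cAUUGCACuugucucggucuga
miR-92a-3p: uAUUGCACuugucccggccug
miR-363-3p: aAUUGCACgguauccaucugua

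The miR-18 seed is carried by Mir18b and its paralogue Mir18, whose product is miR-18a, and the miR-19 seed by Mir19b-2, whose product miR-19b-3p is also made by Mir19b-1:
miR-18b-5p: uAAGGUGCaucuagugcuguuag
miR-18a-5p: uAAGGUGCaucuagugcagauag
miR-19b-3p: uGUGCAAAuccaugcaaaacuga

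Substitutions are given with the first gene's base, the position from the 5′ end of the mature miRNA and the second gene's base. From miR-17-5p to miR-106a-5p there was 1 substitution in 23 bases, U10A. From miR-20a-5p to miR-20b-5p there were 2, U1C and U10C, and from miR-18a-5p to miR-18b-5p also 2, A18U and A20U. miR-106b-5p and miR-93-5p, made from the same intron, differed at 5 of 21 compared bases. From miR-92a-3p to miR-25-3p there were 3 substitutions, U1C, C14U and C18U, while miR-363-3p differed from miR-92a-3p at 11 of 21 bases. None of the substitutions in these pairs fell in the seed.

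Both guide sequences that have an exact copy in another annotated mouse hairpin belong to the Mir106a-363 cluster. Mir19b-2 shares all 23 bases of miR-19b-3p with Mir19b-1, in a matching stretch of 25 bases. Mir92-2 shares all 21 bases of miR-92a-3p with Mir92-1, in a matching stretch of 22 bases. Reads with several mapping places made up 22.7% of the library of pup 1 and 24.8% of that of pup 2, and the tables keep them in a total outside the gene rows. The levels of Mir19b-2 and Mir92-2, and of Mir19b-1 and Mir92-1, can therefore be too low by an unknown amount. For the guide sequences of the other 7 members, the longest exact stretch shared with another hairpin was 9 bases for Mir363, 10 for Mir106b and Mir93, 12 for Mir25, 13 for Mir106a and Mir20b, and 17 for Mir18b.

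In the GENCODE M21 annotation of GRCm38, the Mir106b-25 hairpins lie on the minus strand of chromosome 5 within 498 bases. Mir106b (ENSMUSG00000065514.1) is at 138165737 to 138165818, Mir93 (ENSMUSG00000065527.1) at 138165523 to 138165610 and Mir25 (ENSMUSG00000065394.1) at 138165321 to 138165404. All are in intron 13 of the Mcm7 transcript with 15 exons, an intron of 748 bases. Mir93 and Mir25 also overlap exons of Mcm7 transcripts annotated as retained introns. The Mir106a-363 hairpins lie on the minus strand of chromosome X within 875 bases, from Mir106a (ENSMUSG00000065456.1) at 52742503 to 52742567 down to Mir363 (ENSMUSG00000070106.1) at 52741693 to 52741767. Mir106a overlaps an exon of the non-coding gene Kis2, and no other annotated gene overlaps the other 5 hairpins. Neighbouring hairpins were 118 and 126 bases apart on chromosome 5 and 46 to 138 bases apart on chromosome X.

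**Figure D1:**
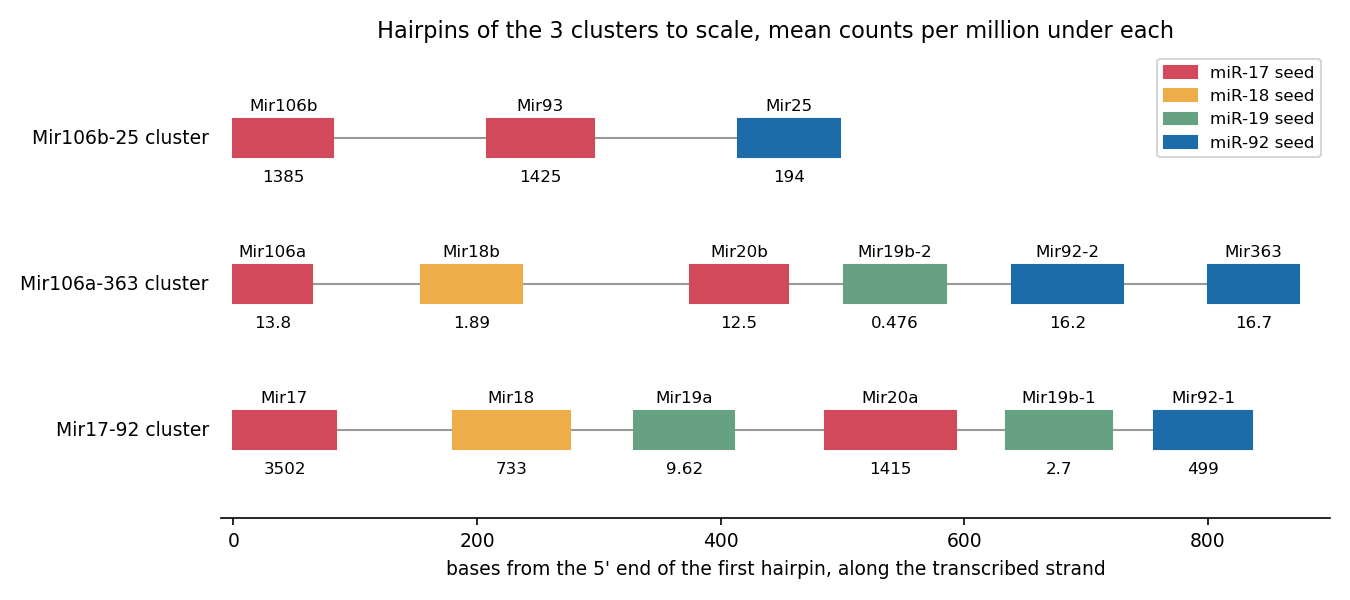
Hairpins of the 3 paralogous clusters drawn to scale as boxes, with distance in bases from the 5′ end of the first hairpin on the x axis, colour for the seed family and mean CPM over the 2 pups under each box. The Mir106b-25 cluster has 3 hairpins of 2 seed families, and its levels of 194 to 1425 CPM are all above those of the Mir106a-363 cluster, 0.476 to 16.7 CPM.

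Sense-strand gene counts came to 7460621 in pup 1 and 3636650 in pup 2, so values of pup 2 rest on fewer reads. Counts of 0 stayed at 0 in levels and sums. As a limit for them, a floor of 3 counts is 0.402 CPM (pup 1) and 0.825 CPM (pup 2). This floor is a simpler limit than the upper end of an exact two-sided interval, which is higher. Intervals and floors cover the counting of reads only, and reads copied from the same molecule were not told apart here. Smooth muscle markers, led by Mir143, summed to 538292 and 535291 CPM in pups 1 and 2, and the epithelium list to 16684 and 16284 CPM. The endothelium list, Mir126a alone, was at 19915 and 19646 CPM, the skeletal and cardiac muscle list at 107.9 and 93.8 CPM, the liver list, Mir122 alone, at 111.8 and 31.6 CPM and the pluripotent cell list at 12.5 and 11.3 CPM. All 5 neuron markers with a row, which have near-identical copies, were at 0. Because reads with several mapping places are kept outside the gene rows, these counts of 0 do not show that neurons were absent. Most of the muscle sum came from Mir208b, at 73.3 CPM (pup 1) and 52.5 CPM (pup 2). Mir1a-1 (5 and 1 counts), Mir133a-1 (2 and 2) and Mir133a-2 (0 in both) also have numbered copies and can be too low for the same reason. In whole-bladder RNA, fewer cells of a type and less RNA per cell cannot be told apart.

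The Mir106b-25 cluster was the abundant one of the pair. The sum over its 3 genes was 2676 CPM in pup 1, 3332 CPM in pup 2 and 3004 ± 464 CPM on average, which is 0.300% of sense-strand gene counts. The 6 genes of the Mir106a-363 cluster summed to 56.0 and 67.1 CPM, or 61.6 ± 7.83 CPM. The first sum was 47.8 times the second in pup 1 (exact 95% counting interval 43.4 to 52.8) and 49.7 times in pup 2 (43.8 to 56.6). Reads of the guides shared by Mir92-2 and Mir19b-2 can be missing from the second sum, so these ratios can be too high. Mir17-92 summed to 5716 and 6607 CPM, 2.14 times the Mir106b-25 cluster in pup 1 and 1.98 times in pup 2. Reads of Mir92-1 and Mir19b-1 can be missing in the same way, so the ratios of Mir17-92 can be too low. Counting intervals do not cover such missing reads. A read of a mature miRNA covers the whole molecule, so levels were not divided by gene length. How well each sequence was captured in the libraries was not tested.

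Mir93 and Mir106b, the miR-17 family genes of the Mcm7 intron, had about equal levels. Mir93 had 9081 counts in pup 1 and 5939 in pup 2, or 1217 and 1633 CPM (1425 ± 294 CPM), and was number 54 of all 1973 genes by mean level. Mir106b had 9635 and 5377 counts, or 1291 and 1479 CPM (1385 ± 132 CPM), and was number 56. Mir20a of the Mir17-92 cluster stood between them at 1415 ± 166 CPM, and Mir296 just above Mir93 at 1434 ± 123 CPM. These 4 levels overlap over the pups and have no order beyond that spread.

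The order of Mir93 and Mir106b was opposite in the 2 pups. Mir106b counts were 1.06 times those of Mir93 in pup 1 (exact 95% counting interval 1.03 to 1.09) and 0.905 times in pup 2 (0.872 to 0.940). Each interval leaves out 1, on opposite sides, and this ratio within a library does not depend on how the libraries are scaled. Mir106b made up 48.3% of the cluster's counts in pup 1 and 44.4% in pup 2, and Mir93 45.5% and 49.0%. With 2 pups, whether the order differs between animals or between library preparations cannot be told apart.

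Mir25, the only miR-92 family gene of the intron, was well below its neighbours in both pups. It had 1252 and 803 counts, or 168 and 221 CPM (194 ± 37.5 CPM), and was number 128 of all genes. Mir93 counts were 7.25 times those of Mir25 in pup 1 and 7.40 times in pup 2 (7.32 ± 0.101), and the exact 95% counting intervals of the pups, 6.84 to 7.70 and 6.87 to 7.97, overlapped. Mir106b counts were 7.70 times those of Mir25 in pup 1 (7.25 to 8.17) and 6.70 times in pup 2 (6.22 to 7.22), and these intervals did not overlap. Mir25 held 6.27% and 6.63% of the cluster's counts.

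The members on chromosome X were far less abundant. Mir363, a miR-92 family gene, had 112 and 67 counts, or 15.01 and 18.4 CPM (16.7 ± 2.41 CPM), and was the most abundant member of its cluster by mean level, number 225 of all genes. Mir92-2 followed with 116 and 61 counts, or 15.5 and 16.8 CPM (16.2 ± 0.866 CPM), but with the limit given for its shared mature sequence. Mir877, next above Mir363, was at 16.8 ± 1.55 CPM. Mir363 and Mir92-2 overlapped over the pups, with Mir92-2 higher in pup 1 and Mir363 higher in pup 2.

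Mir106a and Mir20b, the miR-17 family genes of the X cluster, were close to those levels. Mir106a had 101 and 51 counts, or 13.5 and 14.0 CPM (13.8 ± 0.344 CPM). Mir20b had 68 and 58 counts, or 9.11 and 15.9 CPM (12.5 ± 4.83 CPM). Their values overlap: Mir106a was above Mir20b in pup 1 and below it in pup 2. Mir106a in both pups was below Mir92-2 in both, but their counting intervals overlapped, at 11.0 to 16.4 and 12.8 to 18.6 CPM in pup 1.

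Mir18b and Mir19b-2 were the lowest members. Mir18b, the miR-18 family gene, had 18 and 5 counts, or 2.41 and 1.37 CPM, and passed the detection rule of 1 CPM and 3 counts in both libraries. Mir19b-2, the miR-19 family gene, had 3 and 2 counts, which put its assigned level under 1.18 CPM (pup 1) and 1.99 CPM (pup 2) by the upper end of the exact 95% interval. It was the only member not detected, and its count does not show that miR-19b is scarce, because the guide sequence is shared with Mir19b-1. In all, 8 of the 9 members were detected, against 335 of all 1973 genes. No member had a count on the opposite strand in either library.

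**Figure D2:**
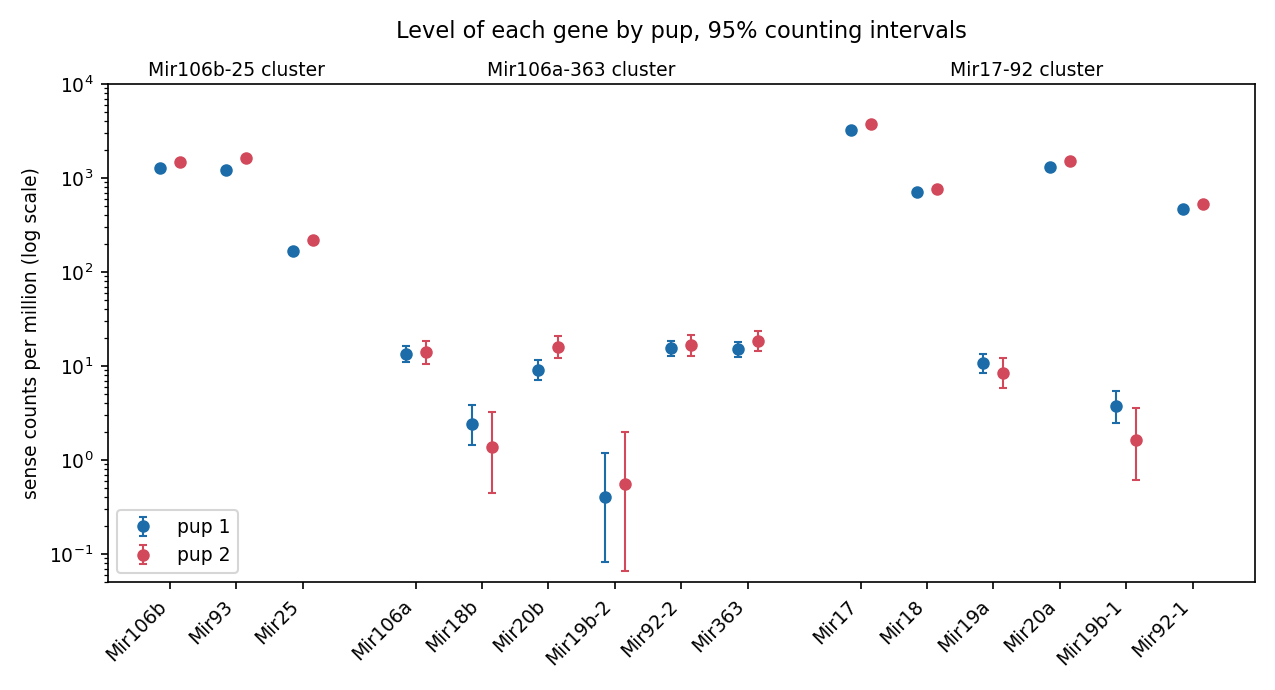
Level of each gene in CPM (sense counts) on a log axis, with 1 point per pup and bars for the exact 95% counting interval, for the 3 paralogous clusters. The 3 genes of the Mir106b-25 cluster lie between 168 and 1633 CPM, and no gene of the Mir106a-363 cluster is above 18.4 CPM in either pup.

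Mir106a, Mir20b and Mir18b were each far below their closest relative in the Mir17-92 cluster. Mir17 counts were 238 times those of Mir106a in pup 1 (exact 95% counting interval 196 to 293) and 269 times in pup 2 (205 to 362), for mature sequences that differ at 1 base. Whether reads of Mir17 were assigned to Mir106a through a misread of that base was not tested, and the intervals do not cover it. Mir20a counts were 142 and 96.1 times those of Mir20b. Mir18 counts were 292 times those of Mir18b in pup 1 (185 to 493) and 554 times in pup 2 (237 to 1708), where the wide interval reflects the 5 counts of Mir18b. Mir92-1 counts were 30.4 and 31.3 times those of Mir92-2. Because these genes share the whole guide sequence, that ratio covers assigned reads only and cannot be read as a gap in level. Mir19b-1 had 28 and 6 counts, and its shared guide sequence leaves no ratio to Mir19b-2 that can be read.

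Chromosome 5 members were closer to their relatives of the Mir17-92 cluster. Mir17 counts were 2.50 and 2.55 times those of Mir106b, and 2.65 and 2.31 times those of Mir93. Mir20a counts were 1.00 and 1.04 times those of Mir106b, with exact 95% counting intervals that include 1 in both pups (0.977 to 1.03 and 0.998 to 1.08). Mir92-1 counts were 2.82 and 2.38 times those of Mir25, a lower limit in so far as reads of miR-92a-3p are missing.

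Seed families therefore drew on the clusters in different proportions. All 7 annotated genes with the miR-17 seed had a row, and they summed to 7754 ± 987 CPM. The Mir106b-25 cluster held 35.6% of that sum in pup 1 and 36.8% in pup 2, the Mir106a-363 cluster 0.321% and 0.355%, and the Mir17-92 cluster the rest; Mir6383, the seventh gene, was at 0. In the miR-92 family, with 7 genes and 806 ± 78.0 CPM, Mir25 held 22.3% and 25.6%, and Mir92-2 with Mir363 held 4.07% and 4.09%. Mir32, another gene of this seed, was at 74.4 ± 0.570 CPM, between Mir25 and Mir363, and Mir367 had no count in either library. Mir92b, which was named after its value was seen, was at 5.91 ± 0.202 CPM. In the miR-18 family Mir18b held 0.341% and 0.180%, and in the miR-19 family Mir19b-2 held 3 of 111 and 2 of 39 counts.

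Shares of the miR-92 and miR-19 families rest on genes whose reads can be missing. In the miR-19 family, Mir19b-1 and Mir19b-2 have the same guide sequence, so the share of Mir19b-2 cannot be read. Without Mir92-1 and Mir92-2, an alternative chosen after seeing the data, Mir25 held 66.4% of the miR-92 family and Mir363 held 5.74%. In the miR-17 and miR-18 families, no gene with counts had an exact copy of its guide sequence in another annotated hairpin. Copies elsewhere in the genome, and reads mapped with mismatches between near-identical guides, were not tested for these shares.

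**Figure D3:**
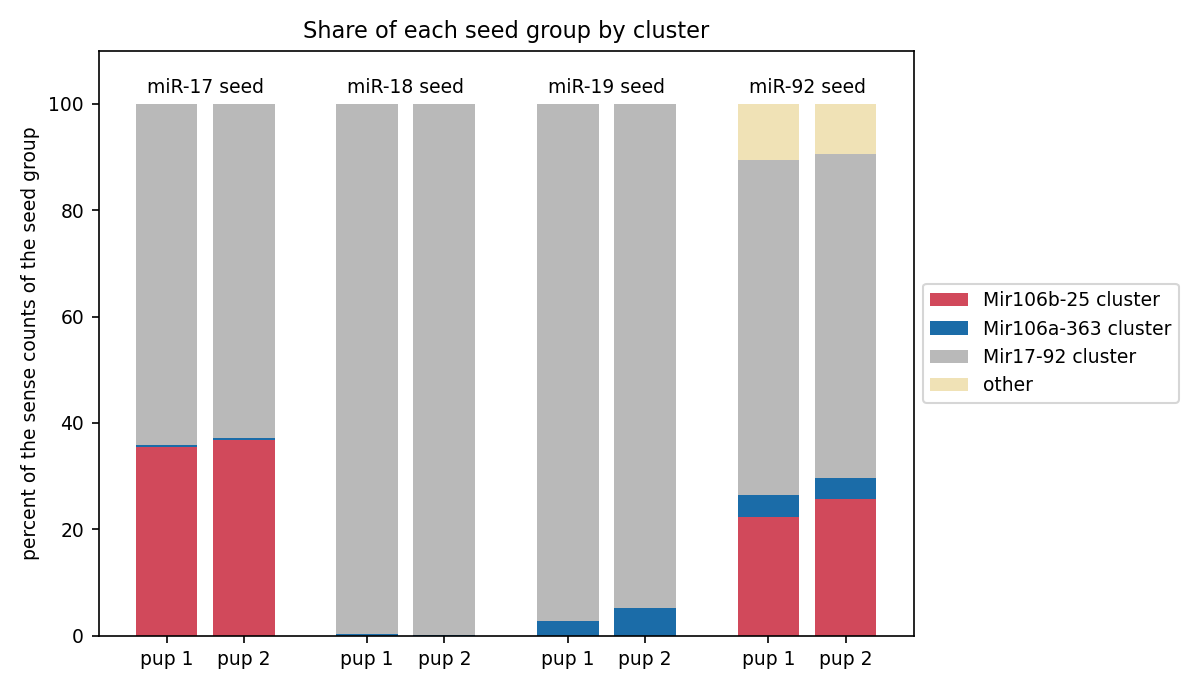
Stacked bars give the percent of the sense counts of each seed family that came from each cluster, 1 bar per pup, with genes outside the 3 clusters as "other". The Mir106b-25 cluster holds 35.6% and 36.8% of the miR-17 family and 22.3% and 25.6% of the miR-92 family, and has no miR-18 or miR-19 gene. Reads of shared guide sequences can be missing from the miR-92 and miR-19 bars.

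Within the clusters the balance of the families differed more than over the pups. The miR-92 family made up 6.45% ± 0.252 of the counts of the Mir106b-25 cluster and 8.11% ± 0.236 of those of the Mir17-92 cluster. In the Mir106a-363 cluster it made up 54.5% for pup 1, with an exact 95% interval of 49.6% to 59.4%, and 52.5% for pup 2, with an interval of 46.0% to 58.9%. With genes of shared guide sequences left out, Mir363 alone held 37.5% (32.0% to 43.2%) and 37.0% (30.0% to 44.5%) of the remaining X-linked counts. The miR-17 family made up 93.6% ± 0.252 of the Mir106b-25 cluster, 79.8% ± 0.865 of the Mir17-92 cluster and, in pups 1 and 2, 40.4% and 44.7% of the Mir106a-363 cluster. The 8.11% of the Mir17-92 cluster is Mir92-1 alone, whose reads can be missing, so it can be too low. The 79.8% of the Mir17-92 cluster can then be too high. These are shares of assigned counts, and 2 pups allow no test of them over animals.

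The littermates' libraries were set against each other gene by gene, for the 362 genes with at least 10 counts, by an exact conditional binomial test (two-sided, Benjamini-Hochberg adjustment over all 362). The test sets 2 libraries against read counting noise and does not compare conditions. A gene is called here when its adjusted p is under 0.05. Of the 9 members, 8 were tested and 4 were called, all with the higher level in pup 2. Over all tested genes 32.3% were called, 19.1% as higher in pup 2 and 13.3% as higher in pup 1. That split depends on the scaling of the libraries: with TMM computed over the 362 tested genes, 69 genes were called as higher in pup 2 and 48 as lower, but with TMM over all 1973 genes 49 and 74, with total counts 59 and 64, and with DESeq2 size factors 56 and 69. The same 4 members were called, in the same direction, under each of the 4 scalings.

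All 3 genes of the Mir106b-25 cluster were called as higher in pup 2. The log2 ratio of pup 2 over pup 1 was 0.45 for Mir93 (1.36-fold, counting SE 0.024), 0.42 for Mir25 (1.34-fold, counting SE 0.065) and 0.22 for Mir106b (1.16-fold, counting SE 0.025). Their adjusted p values in the exact binomial test were 9.29e-74, 1.65e-09 and 8.72e-18. Such p values follow depth: 76.7% of genes with 10000 or more counts were called, 42.5% as higher in pup 2, and Mir93 and Mir106b are among those genes. With at least 1000 and under 10000 counts, as for Mir25, 43.2% were called, 26.1% as higher in pup 2. The 95% counting interval of Mir93, 0.40 to 0.50, lay above that of Mir106b, 0.17 to 0.27, which is the change of order described above. Summed, the cluster had a log2 ratio of 0.34.

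In the Mir106a-363 cluster, Mir20b was the only one of 5 tested members that was called. It was higher in pup 2 with a log2 ratio of 0.83 (1.78-fold, exact 95% counting interval 0.30 to 1.36, adjusted p = 0.00622 in the exact binomial test). The log2 ratio was 0.32 for Mir363 (-0.14 to 0.77), 0.14 for Mir92-2 (-0.34 to 0.59), 0.08 for Mir106a (-0.44 to 0.57) and -0.69 for Mir18b (-2.57 to 0.70), and none of these was called. Their intervals overlap that of Mir20b, so a difference among the X-linked members was not shown at this depth. Of the 87 tested genes with at least 100 and under 1000 counts, 17.2% were called, 10.3% as higher in pup 2. The summed cluster had a log2 ratio of 0.29 (0.05 to 0.52).

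With the spread between these libraries taken into account, no member stood out. The biological coefficient of variation, the spread beyond counting that edgeR estimates, was 13.2%. In edgeR's exact test with that common dispersion, 0 of 8 members and 1.38% of all tested genes were called, and 1 member, Mir20b, had an unadjusted p under 0.05 (0.0319). The dispersion comes from the same 2 libraries, so this describes them and tests no difference between animals. The median log2 ratio of the 8 tested members was 0.27, against 0.03 for all tested genes (0.21 against -0.03 with TMM over all genes). With TMM over the tested genes, 7 of the 8 ratios were above 0, against 204 of 362. The 204 depends on the scaling, as the median of all tested genes does.

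Related genes differed in the same direction where they were called. In the Mir17-92 cluster, 4 of 6 genes were called, each higher in pup 2. Their log2 ratios were 0.25 for Mir17, 0.26 for Mir20a, 0.17 for Mir92-1 and 0.14 for Mir18. Calls were common at such depth. Of all tested genes with 10000 or more counts, as for Mir17 and Mir20a, 76.7% were called, 42.5% as higher in pup 2. With at least 1000 and under 10000 counts, as for Mir18 and Mir92-1, 43.2% were called, 26.1% as higher in pup 2. With TMM over all genes 3 of the 6 Mir17-92 genes were called, and Mir18 was not (adjusted p = 0.0794 in the exact binomial test). Mir19a at -0.29 and Mir19b-1 at -1.07, from 111 and 34 counts, were not called, and neither was Mir32 at 0.04.

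Some blood cell markers were also higher in pup 2. The list of 6 with a row had a sum of 1201 CPM in pup 1 against 2357 CPM in pup 2, all 6 were detected, none was at 0 and 3 of the 6 were called, all as higher in pup 2. Most of the gap between the sums came from Mir223, with 396 CPM for pup 1 against 1274 CPM for pup 2. Mir223 of neutrophils had a log2 ratio of 1.71, and Mir144 and Mir451a of red cells had 0.73 and 0.37, while Mir486 at 0.13, Mir150 at 0.16 and Mir155 at -0.10 were not called. Liver marker Mir122 differed the other way, with a log2 ratio of -1.79. The part of blood in the members' difference was not tested. For the X-linked members, the other 35 tested genes of chromosome X had a median log2 ratio of 0.05, with 8 called as higher in pup 2 and 4 as higher in pup 1.

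Genes with the most similar difference between the pups, over 2 samples only, were taken from those with at least 100 counts in each library. Nearest to the summed Mir106b-25 cluster were Mir221, Mir16-2 and Mir451a, with log2 ratios of 0.33, 0.36 and 0.37. Nearest to the summed Mir106a-363 cluster were Mir140, Mir29a and Mir15a, at 0.29, 0.28 and 0.28. With 2 samples this likeness is a single number per gene.

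**Figure D4:**
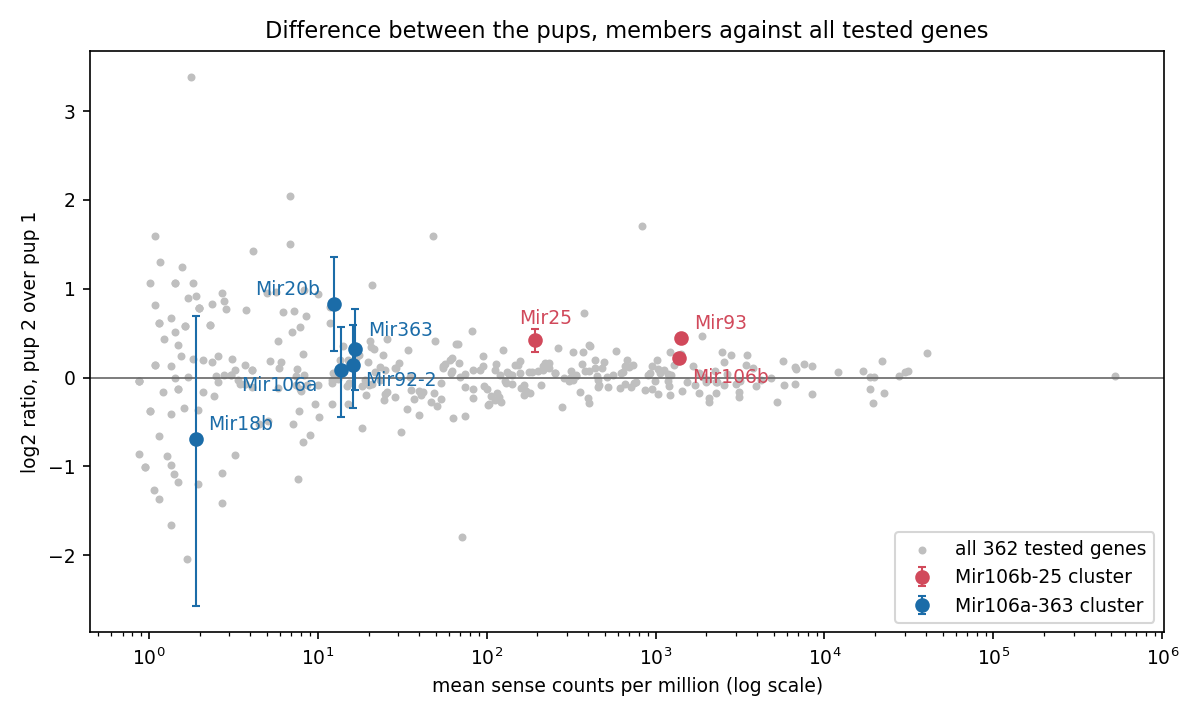
Log2 ratio of pup 2 over pup 1 against mean CPM (sense counts) on a log axis, with the 362 tested genes in grey and the 8 tested members in colour with exact 95% counting intervals. The Mir106b-25 genes lie between 0.22 and 0.45 with narrow intervals, and among the X-linked genes the interval of Mir20b alone, 0.30 to 1.36, leaves out 0.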

How the data were processed

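Each library came as a table of raw counts per miRNA gene, which the authors deposited without normalization, on mm10 with GENCODE M4 per the README text deposited beside it. Aligner, counter and filters: not given in the sources used here. With no header in the tables, the strands were read from the values: the leading count column is the sum of the next ones at all 1973 genes, and those were taken as sense and opposite strand in that order. Lines that name no gene were left out of totals and tests: unmapped reads (8.19% and 7.32% in pups 1 and 2), multimapping reads and reads outside genes (3.22% and 3.07%).

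Symbols and positions came from GENCODE M21 (GRCm38) by Ensembl number, for 1894 of 1973 IDs, and mature sequences from RefSeq. Log2 ratios used a prior count of 0.5 and TMM scaling (edgeR 4.0.16, R 4.3.3). TMM was first computed over all genes. It was changed to the 362 tested genes after the calls of both versions had been seen and the first had not matched earlier results of these data, so the all-gene version is reported beside it. DESeq2 1.42.0 gave alternative size factors, and Python 3.11.15 with scipy 1.17.1 the tests. Intervals are exact (Clopper-Pearson) at 95%. Simulated counts were used to check the binomial code. The rule for passing that check was loosened 3 times after it had not been met, and in its last form it required calls for genes changed 4-fold with at least 100 counts; the code for the test was not altered.

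Members, lists and tests were chosen with earlier results of these data known. Named genes are the 9 members, the Mir17-92 cluster, Mir32 and Mir367, the neighbours in level of each cluster's most abundant member, the 3 nearest genes in log2 ratio and the cell type markers. The p-values measure read counting in these libraries only.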

Additional observations from a re-analysis of the deposited data

How the results depend on the processing

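With TMM over all genes (added after seeing the data; the first version run), total count scaling, DESeq2 size factors, no filter on counts, a minimum of 100 counts or counts of both strands, 4 members were called as in the report; with the common dispersion in edgeR's exact test 0 were. All 40 recomputed log2 ratios of single members, under 5 alternatives, kept their direction and their side of the threshold, with Mir93 at 0.39, Mir20b at 0.77 and Mir106b at 0.16 under TMM over all genes. A prior count of 2, among these 5, does not enter the test, so the side of the threshold could not change under it. Members had no opposite-strand counts, so counts of both strands changed only the scaling and the genes tested beside them. With Mir143 left out of the total, the Mir106b-25 cluster summed to 6320 CPM and the Mir106a-363 cluster to 129.5 CPM, because the smaller total multiplies each member's level by 2.10 to 2.11. Without members whose guide sequence has an exact copy in another annotated hairpin, a setting also added later, the Mir106a-363 cluster summed to 44.9 CPM, and the Mir106b-25 and Mir106a-363 clusters held 66.4% and 5.74% of the miR-92 family. With each pup left out in turn, the sums ranged from 2676 to 3332 CPM and from 56.0 to 67.1 CPM. The planned version of the copy alternative, over the whole genome, was not run because no genome sequence was used here. No paired analysis was possible because there is only 1 group. Depth limits the X-linked members most, at 418 counts in all in pup 1 and 244 in pup 2.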
